A study of Sus scrofa with 102 samples.

Results

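Fat, liver, and muscle of the same 5-month-old crossbred pigs were compared as tissues, to describe which genes each tissue held at a higher or lower level than the other 2. The members were the arrays whose title gives the age of 5 months, which were 45 of the 102 arrays of the series: 15 of fat (subcutaneous adipose tissue), 15 of liver, and 15 of muscle (longissimus dorsi). The study mated LWD females (Landrace, Large White, and Duroc crossbreds) with a Landrace or a Meishan boar and followed gene expression in the offspring at several ages, because Meishan pigs are known for thick backfat. All animals used here were female, and each tissue was measured in 8 LWDL pigs (LWD x Landrace) and 7 LWDM pigs (LWD x Meishan). Each breed type descended from 1 boar and 2 LWD females, so that breed type and sire cannot be told apart. On every array the RNA of 1 animal carried Cy3 and a common control, liver RNA of female LWD pigs, carried Cy5, and the dyes were not exchanged. The value used throughout is the log2 ratio of sample over control, so that liver arrays lie near 0 for most genes and a negative value means a level below that of the control liver. A tissue difference is the mean log2 ratio of a tissue minus the mean of the other 2, on the log2 scale, and it is given with its standard error (SE) where stated.

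Subcutaneous fat stores triglyceride, and in pigs it is also the main site where fatty acids are made from glucose. Liver secretes most plasma proteins, releases glucose, and oxidizes drugs and steroids. The longissimus dorsi is a mostly fast-contracting back muscle that is rich in glycogen. Fat and muscle both take up fatty acids from the blood, whereas the adult hepatocyte has little lipoprotein lipase, so that part of lipid handling is shared by fat and muscle and part by fat and liver.

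Between 71.1% and 81.3% of the 43221 probes of an array were well above background in Cy3. Of these probes, 34172 were tested, namely those that exceeded background clearly on all arrays of some tissue and breed type. Gene symbols were available for 1797 of the tested probes, which represent 1354 genes that the study listed for a difference between breed types in some tissue and age, so that the named genes are a selected part of each tissue and not independent of the breed type. Whole tissues were measured, and fewer cells of a type and less RNA per cell cannot be told apart in them. Fat arrays were scanned on a day of their own while liver and muscle arrays shared a scan day, so that scan day and fat cannot be told apart, and each slide held 1 tissue and 1 breed type.

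The arrays fell into the 3 tissues. The first principal component of the log2 ratios held 58.9% of the variance and ran from liver over fat to muscle, and the second held 28.6% and set fat apart. The third held 2.38% and separated the breed types within each tissue, with every LWDL array below 0 and every LWDM array above it. Across 34046 probes, pairs of fat arrays had a median correlation of 0.942, pairs of muscle arrays 0.965, and pairs of a fat and a muscle array 0.677. Pairs of a liver array with a fat or a muscle array had medians of 0.091 and 0.097. Liver arrays had a median correlation of 0.631 with each other, from 0.304 to 0.865. These correlations share the control on every array and are descriptions across probes.

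**Figure D1:**
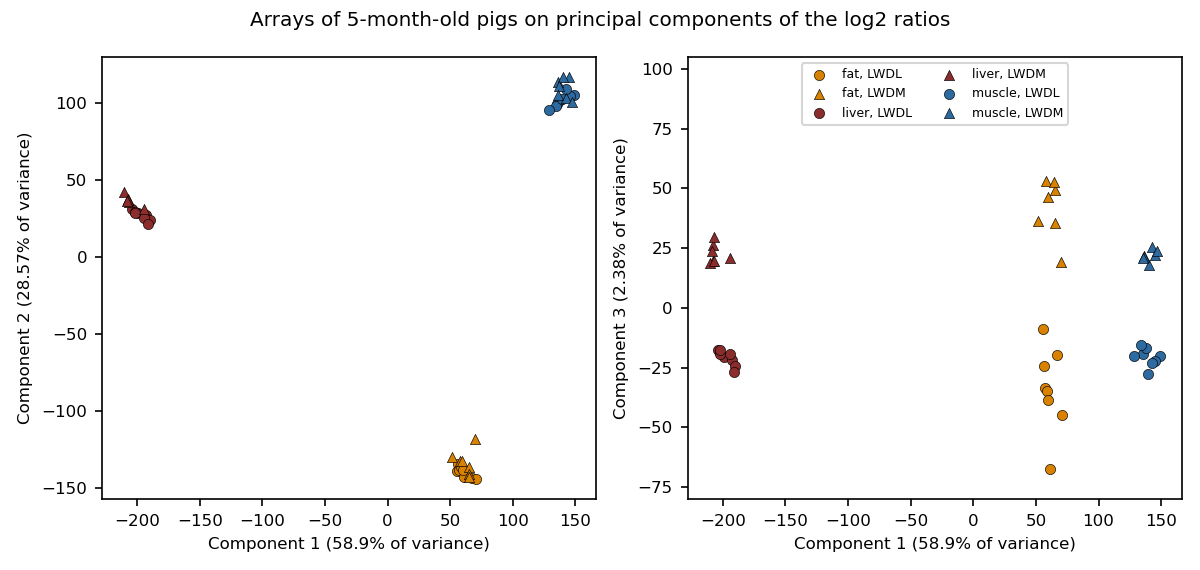
Position of the 45 arrays on principal components of the log2 ratios of 34046 probes, with component 1 on the x axis of both panels and component 2 (left) or 3 (right) on the y axis. Colors mark tissues, circles LWDL, and triangles LWDM. The tissues form separate groups on components 1 and 2, and LWDL arrays lie below 0 and LWDM arrays above 0 on component 3 in every tissue.

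The labels were checked against marker genes, because the free-text description of the 5-month fat arrays names liver while their title, source name, and tissue entry name fat. The mean log2 ratio over 14 genes of plasma proteins made by hepatocytes was -6.07 to -5.44 on fat arrays, -5.87 to -5.08 on muscle arrays, and -0.70 to -0.089 on liver arrays. The mean over 10 adipocyte genes was 1.91 to 2.38 on fat arrays and -0.89 to 0.05 on liver arrays. The fat and liver ranges did not overlap in either list, so the values of these arrays were not those of liver. The mean over 17 genes of the sarcomere was 5.23 to 5.94 on muscle arrays, -0.27 to 0.63 on liver arrays, and 0.37 to 4.27 on fat arrays. Fat therefore lay between the other tissues for muscle genes and varied most among its arrays. The fat array of LWDM pig 3 was the highest in fat at 4.27, and the remaining fat arrays of LWDM pigs reached 2.69 and those of LWDL pigs 2.62. Without that array no count of called probes over all tested probes moved by more than 1.5-fold. Counts of small gene lists could, as the genes of red blood cells called lower in liver went from 1 to 2. The part of muscle RNA in the fat values was not tested.

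The control channel was not constant across tissues, although every array held the same control RNA. Of 5642 probes called higher in muscle, 415 (7.36%) had a Cy5 signal that was also over 2-fold higher on muscle arrays, and 198 of them over 16-fold. In fat this held for 246 of 5239 probes (4.70%), and in liver for 1 of 6040. For MYL1, a myosin light chain of fast fibers, the median processed Cy3 signal was 3.3 on liver, 74.5 on fat, and 1005850.0 on muscle arrays, while the median Cy5 signal was 3.64, 5.93, and 20560.5. The log ratio divides by this signal, so that the muscle difference of MYL1 was 4.18 in the log ratio and 15.57 in the Cy3 channel alone. Among 384 called probes with a Cy3 difference of over 6 in muscle, the median difference was 9.47 in Cy3 and 4.94 in the log ratio. Of these 384 probes, 11 were saturated in Cy3 on some muscle array, and without them the medians were 9.44 and 4.97. Between 10 and 18 spots were saturated on each muscle array and 0 on the others, and MYL1 was saturated on none. The same medians were 7.32 and 3.49 for 56 probes in fat but 6.82 and 6.85 for 290 probes in liver. These medians were thus smaller in the log ratio in muscle and fat and about the same in liver. Single bright genes could go the other way, as SCD did in fat, and the cause was not tested. The value in the Cy3 channel alone (log2 processed signal minus the 75th percentile of each array) is given beside many of the genes and lists that this touches.

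**Figure D2:**
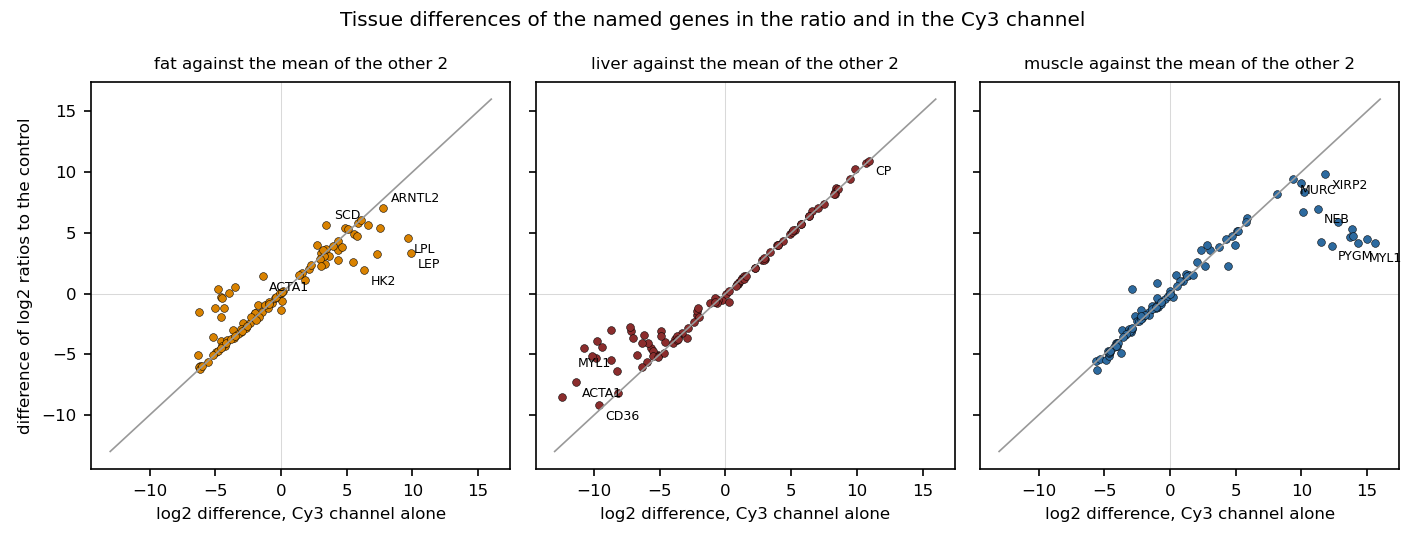
Tissue difference in the log2 ratio to the control (y axis) against the difference in the Cy3 channel alone (x axis, log2 scale) for 94 genes, 1 panel per tissue and 1 point per gene. The gray line marks equal values. In liver the genes that were higher lie close to the line, while in muscle MYL1 lies at 15.57 on the x axis and 4.18 on the y axis and in fat LEP lies at 9.90 and 3.29.

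Each tissue differed from the mean of the other 2 for many probes. Calls required more than a 2-fold difference and, in limma, an adjusted p (Benjamini-Hochberg, over all tested probes) below 0.05. In fat 5239 probes were called higher (15.3% of those tested) and 4878 lower (14.3%). In liver 6040 were higher (17.7%) and 6311 lower (18.5%), and in muscle 5642 were higher (16.5%) and 6842 lower (20.0%). In the log ratio 962 of the probes called higher in liver differed by over 16-fold, and 492 in muscle and 137 in fat did. In Cy3 alone these counts were 997, 740, and 322, while the probes with a difference of over 6 were more numerous in muscle than in liver, as given above, so that the order of the tissues by large differences depended on the channel and the threshold.

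A mean of 2 tissues can hide a level as high in one of them, so each tissue was also compared with each other tissue. Liver was over 2-fold higher than both other tissues for 4252 probes (12.4%), muscle for 3635 (10.6%), and fat for 2700 (7.90%). These probes are described as highest in that tissue. Muscle was lower than both for 3167 probes (9.27%), liver for 3367 (9.85%), and fat for 1473 (4.31%). Fat thus had the fewest probes of its own in both directions, and at 7.90% its share was under that of the other tissues. Of the 1354 named genes, 330 (24.4%) were highest in liver, 200 (14.8%) in fat, and 181 (13.4%) in muscle. In the same order 429, 360, and 279 were called higher and 368, 329, and 482 lower. The gene lists below are drawn from these genes, while their counts are set beside the shares of all tested probes.

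**Figure D3:**
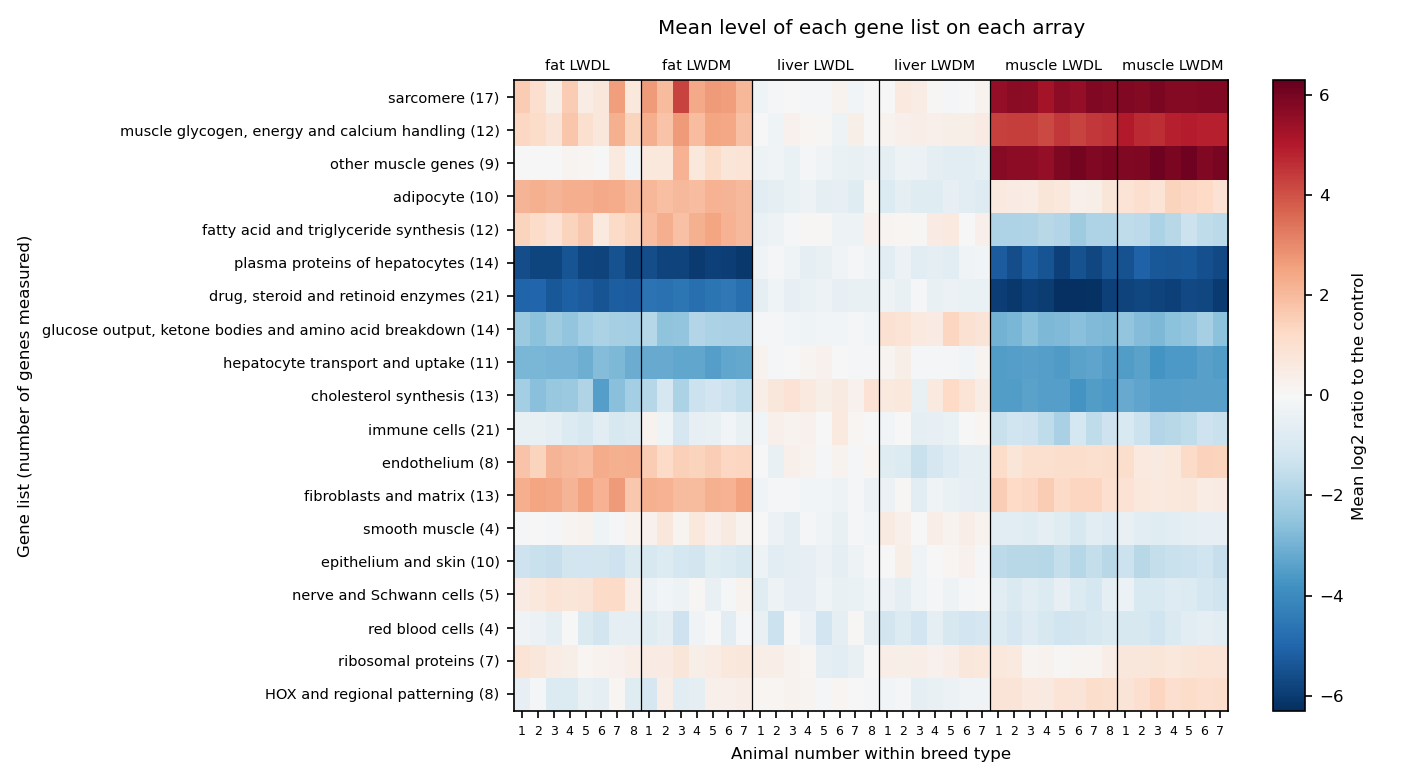
Mean log2 ratio to the control (color scale) of 19 gene lists (rows, with the number of genes measured) on each of the 45 arrays (columns, by tissue, breed type, and animal number). Muscle genes are highest on muscle arrays, where the sarcomere list spans 5.23 to 5.94, and genes of the hepatocyte are lowest on fat and muscle arrays, where the plasma protein list spans -6.07 to -5.08.

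Muscle was marked by genes of the contractile apparatus and of glycogen, energy, and calcium handling. All 17 measured genes of the sarcomere were called higher in muscle and highest there, beside 10.6% of all tested probes, and their median difference was 4.60. In the Cy3 channel alone the same 17 genes were highest in muscle, and the middle value was 12.78, that of ACTA1, whose probe was saturated on the muscle arrays. Of 12 genes of glycogen, energy, and calcium handling, 12 were called higher in muscle and 11 were highest there, with a median of 3.64 in the log ratio and 7.41 in Cy3 alone. The 9 other muscle genes were all highest in muscle, with medians of 5.45 and 9.38 in the same order. The median over all tested probes was -0.04.

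One of the large muscle differences was that of XIRP2, a protein of the intercalated disc and myotendinous junction that binds actin. Its log2 ratios ran from 8.91 to 9.68 with a median of 9.29 on muscle arrays, from -1.21 to 0.51 with a median of -0.46 on liver arrays, and from -2.77 to 4.49 with a median of -1.01 on fat arrays. The highest fat value, 4.49, was that of LWDM pig 3, and it still lay below all muscle arrays. The difference was 9.83 ± 0.31 (SE; limma adjusted p = 2.25e-30) in the log ratio and 11.82 in Cy3 alone, and XIRP2 was well above background on 7 of 15 fat arrays. MURC, a caveola protein of muscle cells, ran from 7.79 to 8.68 with a median of 8.22 in muscle, from -3.32 to 1.5 with a median of -2.05 in fat, and from -2.51 to 1.09 with a median of -0.41 in liver, without overlap of muscle with the others, and its difference was 9.40 ± 0.29. TXLNB, a taxilin of muscle, differed by 9.12 ± 0.22 and reached 6.34 on fat arrays and 10.37 or more on muscle arrays.

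NEB, the ruler of the thin filament, was well above background on every fat and muscle array and on 13 of 15 liver arrays. Its log2 ratios were 9.21 to 10.41 (median 10.15) in muscle, 2.67 to 8.09 (median 3.61) in fat, and 0 to 4.51 (median 2.26) in liver. Every muscle array lay above every fat array, and fat and liver overlapped. The highest fat value was again that of LWDM pig 3. The difference was 6.98 ± 0.31 in the log ratio and 11.27 in Cy3 alone. ACTA1, the actin of skeletal muscle, was saturated in Cy3 on all 15 muscle arrays, so that its muscle level is a lower limit. Muscle was at least 589-fold higher than fat and at least 10248-fold higher than liver. Its log2 ratios ran from 1.93 to 6.54 with a median of 5.29 in fat and from -2.78 to 2.26 with a median of -1.20 in liver, with fat above liver except where their ends overlapped.

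The heavy and light chains of myosin are the motor of the sarcomere. MYH4, the heavy chain of the fastest fibers, was not well above background on any of the 15 liver arrays, and muscle was at least 258-fold higher than liver. For MYL1 this bound was 8138-fold and for MYL2, the regulatory light chain of slow fibers, 2723-fold. MYH7, the slow heavy chain, differed by 5.27 ± 0.18 in the log ratio and 13.82 in Cy3. Genes of fast and slow fibers were thus all highest in muscle, and levels of different probes were not set against each other. TTN, the giant spring of the sarcomere, differed by 4.65 and 13.70 in the same order. The median sarcomere difference in fat was -0.81 in the log ratio with 1 gene called higher and 8 lower, beside 15.3% and 14.3% of all tested probes. It was -4.63 in Cy3 alone with 0 higher and 17 lower, and -1.75 after normexp and loess with 0 and 14.

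Among genes of muscle energy, PRKAG3, a subunit of AMP-activated kinase that is known for its effect on glycogen in pig muscle, ran from 5.01 to 5.74 with a median of 5.44 in muscle, from -2.67 to 1.40 with a median of -1.28 in fat, and from -2.60 to 0.72 with a median of -1.34 in liver. All muscle arrays lay above all others, and the difference was 6.68 ± 0.24 in the log ratio and 10.15 in Cy3. PYGM, the glycogen phosphorylase of muscle, differed by 3.94 and 12.30, and CASQ1, the calcium store of the sarcoplasmic reticulum, by 4.17 and 14.31, with muscle at least 3708-fold above liver. SLN, a regulator of the calcium pump, differed by 4.71 and 13.91. HK2 and FABP3 were the members of this list that fat shared, and they are described with the genes of lipid uptake below.

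LRRC39, a protein of the M-band, ARPP21, an RNA-binding phosphoprotein, and CLIC5, a chloride channel relative, were further genes for which all muscle arrays lay above all others. LRRC39 was well above background on 2 of 15 fat and 2 of 15 liver arrays, and its muscle difference was 8.39 in the log ratio and 10.22 in Cy3 alone. CLIC5 differed by 5.88 ± 0.11. ARPP21 was not well above background on any liver array, and muscle was at least 21.5-fold higher than liver. Genes for which every muscle array was below every other array included ADH1C, PCK1, and ABCC11. ADH1C, an alcohol dehydrogenase, ran from -11.31 to -10.52 with a median of -10.95 in muscle, from -9.67 to -7.31 with a median of -8.72 in fat, and from -1.28 to -0.65 with a median of -0.93 in liver, which gave separate steps for the 3 tissues. PCK1, which makes phosphoenolpyruvate for glucose and for the glycerol of triglyceride, ran from -8.08 to -6.67 with a median of -7.29 in muscle, from -6.10 to -2.08 with a median of -3.99 in fat, and from -1.38 to 1.23 with a median of 0.41 in liver. Its muscle difference was -5.40 ± 0.20, and fat again lay between liver and muscle without overlap. ABCC11, an efflux transporter, was not well above background on any muscle array, and fat was at least 6.62-fold and liver at least 2.42-fold higher than muscle.

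Liver was marked by genes of plasma proteins, of drug and steroid metabolism, of uptake, and of cholesterol synthesis. Of 14 genes of plasma proteins, 13 were highest in liver, beside 12.4% of all tested probes, with a median liver difference of 5.27 over the list. Of 21 genes of drug, steroid, and retinoid enzymes, 17 were highest in liver (median 5.01), and of 11 genes of transport and uptake 8 were (median 2.11). After normexp and loess the transport list had 5 such genes and a median of 0.86. Of 14 genes of glucose output, ketone bodies, and amino acid breakdown, 9 were (median 2.67), and after normexp and loess 7 (median 1.45). All 13 genes of cholesterol synthesis and uptake were highest in liver (median 3.50). The median over all tested probes was -0.05.

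CP, the copper protein ceruloplasmin, had one of the largest liver differences. It ran from -0.85 to -0.13 with a median of -0.63 in liver, from -13.23 to -10.84 with a median of -11.85 in fat, and from -11.53 to -10.57 with a median of -11.10 in muscle, and the difference was 10.92 ± 0.13 (limma adjusted p = 5.32e-48). Liver arrays lay near the level of the liver control, while fat and muscle overlapped far below it, and CP was well above background on 3 of 15 fat arrays and all 15 muscle arrays. ACSM4, a medium-chain acyl-CoA synthetase, ran from -0.66 to -0.25 with a median of -0.43 in liver, from -12.81 to -10.16 with a median of -11.57 in fat, and from -11.41 to -10.39 with a median of -10.74 in muscle, with a difference of 10.73 ± 0.14. APCS, the serum amyloid P component, differed by 8.36 ± 0.32, and LEAP2, a liver peptide that is an antagonist of the ghrelin receptor, by 8.22 ± 0.30. RBP4, the retinol carrier of plasma, had clear steps, with -0.42 to 0.21 (median -0.26) in liver, -7.01 to -4.59 (median -5.65) in fat, and -8.54 to -7.83 (median -8.09) in muscle. Every fat array lay above every muscle array for RBP4, which fat is also known to make, and its fat minus muscle difference was 2.36 (limma adjusted p = 1.85e-20). IGFBP1, a binding protein of insulin-like growth factors that responds to fasting, ranged more widely among livers, from -2.33 to 2.72 with a median of -0.48.

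The member of the plasma protein list that was not highest in liver was MASP1, a protease of the lectin pathway of complement. It ran from -1.52 to 2.22 with a median of 1.05 in muscle, from -0.58 to 0.42 with a median of -0.17 in liver, and from -3.11 to -2.25 with a median of -2.63 in fat, where no array was well above background. Muscle was at least 2.06-fold higher than fat, and the ranges of muscle and liver overlapped although muscle was called higher (muscle difference 2.26 ± 0.20). MASP1 was no longer called above both other tissues with each array centred on its median, and after normexp and loess 0 genes of the list were called higher in muscle. AFP, alpha-fetoprotein, was highest in liver over all animals but reached 0.14 in muscle, and its muscle values depended on the breed type as described below.

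Among enzymes, GSTA1, a glutathione transferase, ran from -1.13 to -0.15 with a median of -0.91 in liver, from -11.81 to -10.37 with a median of -10.68 in fat, and from -11.77 to -10.90 with a median of -11.29 in muscle, with a liver difference of 10.25 ± 0.092. Fat and muscle overlapped, and both lay far below every liver array. CYP2C18, a drug-oxidizing cytochrome P450, differed by 8.64 ± 0.13, and ADH1C by 8.71 ± 0.15. SULT1E1, which sulfates estrogens, ran from -1.35 to 0.11 with a median of -0.35 in liver and was not well above background on any muscle array, so that liver was at least 45.5-fold above muscle. CYP26A1, which degrades retinoic acid, was not well above background in fat, and liver was at least 13.1-fold above fat. The remaining 4 genes of this list, AKR1C2, PON3, SRD5A1, and CYP4F3, were all called higher in fat. AKR1C2, an aldo-keto reductase of steroids, ran from 0.55 to 2.91 with a median of 1.74 in fat, from -0.16 to 0.57 with a median of 0.06 in liver, and from -4.10 to -2.35 with a median of -3.65 in muscle, and it was highest in fat, although 0.55 in the lowest fat array did not exceed 0.57 in the highest liver array. PON3 and SRD5A1 were also highest in fat, with fat differences of 2.70 and 2.88. After normexp and loess 1 gene of the list was called highest in fat.

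SLC27A2, a fatty acid transporter and acyl-CoA synthetase, ran from -0.51 to 0.41 with a median of -0.12 in liver, from -8.93 to -7.48 with a median of -8.20 in fat, and from -8.61 to -7.90 with a median of -8.27 in muscle. Fat and muscle overlapped far below every liver array, and the liver difference was 8.19 ± 0.099. ASGR1, the asialoglycoprotein receptor, differed by 7.38 ± 0.14. In the opposite direction, SLC47A1, an organic cation exporter, was not well above background on any liver array, and muscle was at least 12.1-fold and fat at least 4.52-fold higher. G6PC, the last step of glucose release, ran from -1.84 to 1.20 with a median of -0.26 in liver, from -4.79 to -2.99 with a median of -3.86 in muscle, and from -5.21 to -3.49 with a median of -4.42 in fat. Liver did not overlap either tissue, and the difference was 3.97 ± 0.19.

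Of the 13 genes of cholesterol synthesis, 7 were called lower in muscle than in each of the other tissues, beside 9.27% of all tested probes, and 0 were so in fat. The mean of the 13 genes was -0.47 to 1.25 (median 0.62) on liver arrays, -3.46 to -1.07 (median -2.02) on fat arrays, and -3.76 to -3.16 (median -3.47) on muscle arrays. Liver did not overlap the others, and fat and muscle overlapped at their ends. SQLE, the squalene epoxidase, ran from -0.52 to 1.00 with a median of 0.50 in liver, from -4.86 to -1.75 with a median of -2.54 in fat, and from -5.90 to -4.54 with a median of -5.13 in muscle, with a liver difference of 4.30 ± 0.17 and a muscle difference of -4.05. MSMO1, a sterol oxidase, differed in liver by 4.87 ± 0.11. In muscle 12 of the 13 genes were called lower, beside 20.0% of all tested probes, and in fat 5, beside 14.3%.

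Genes for which every liver array was below all others included CD36, LPL, and TXLNB. The last is a muscle gene, and the first pair brings fatty acids into fat and muscle. CLEC4G, a lectin of liver sinusoidal endothelium, was in turn one of the lowest genes of fat. It ran from -7.36 to -6.68 with a median of -6.96 in fat, from -4.12 to -3.48 with a median of -3.79 in muscle, and from -0.55 to 0.18 with a median of -0.20 in liver, in 3 separate ranges.

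Fat was marked by genes of the synthesis and storage of triglyceride, and only part of the adipocyte genes were highest there. Of 10 adipocyte genes, 6 were called higher in fat, beside 15.3% of all tested probes, 5 were highest there, and 2 were called lower. Their median fat difference was 3.02 in the log ratio and 5.46 in Cy3 alone. Of 12 genes of fatty acid and triglyceride synthesis, 8 were higher in fat, 7 of them highest, and 1 lower, with a median of 2.72. In muscle 8 of these 12 genes were called lower (median -3.08), while in liver 3 were higher and 2 lower (median 0.22). Over all tested probes these shares were 20.0%, 17.7%, and 18.5%, and the liver counts lay near them. The median of fat over all tested probes was -0.04.

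**Figure D4:**
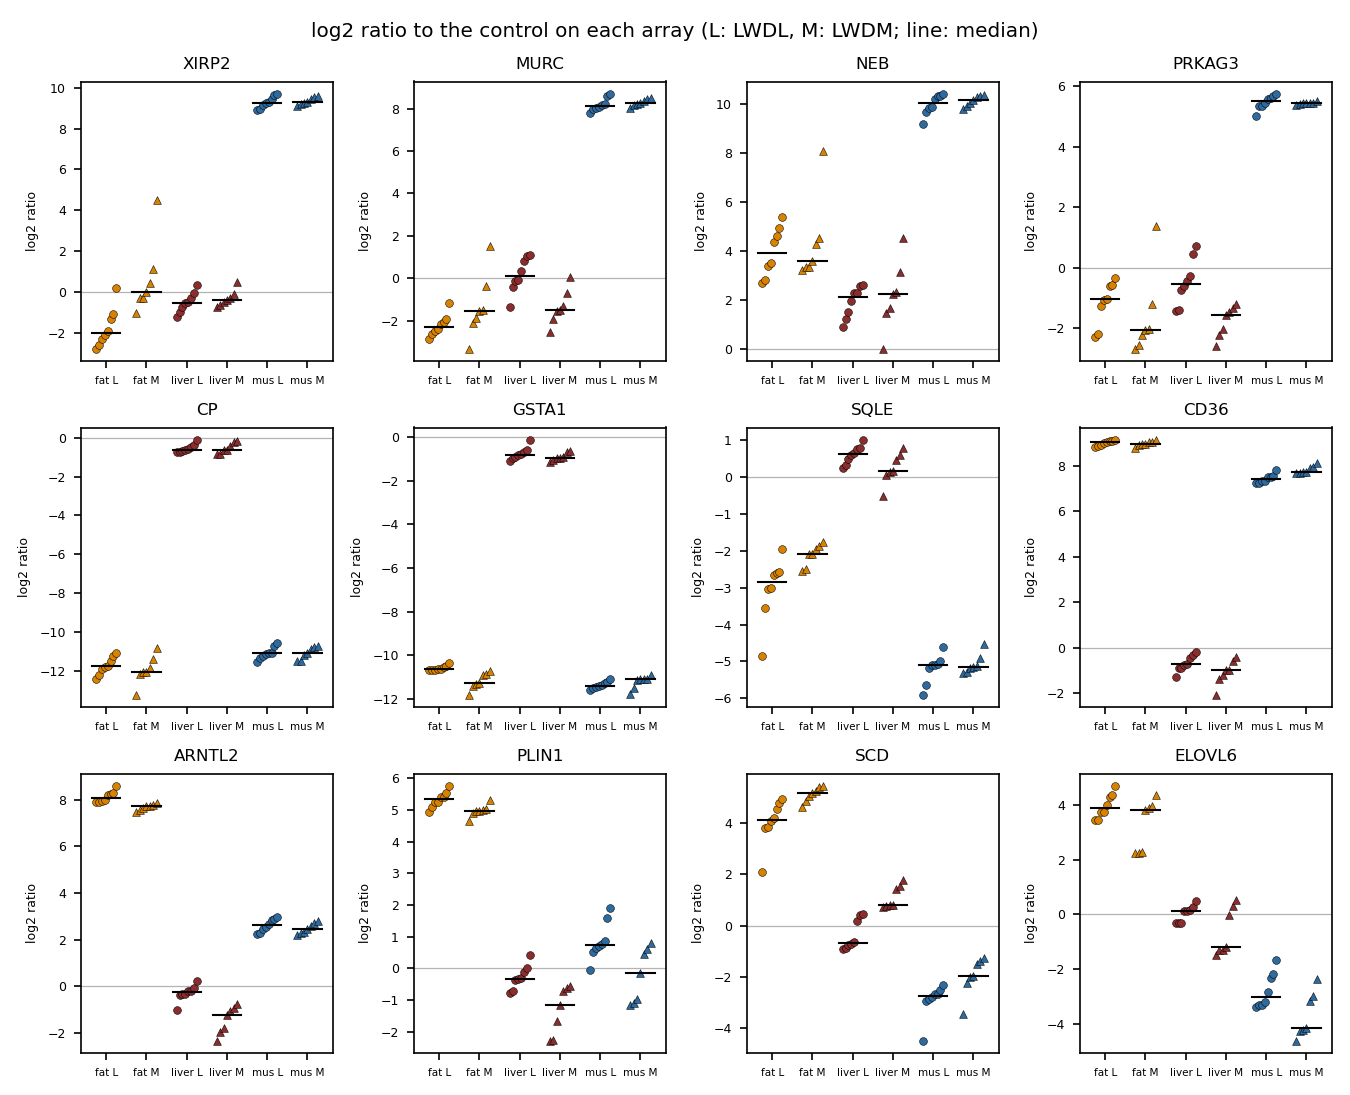
Log2 ratio to the control (y axis) of 12 genes on each array, by tissue and breed type (x axis; L is LWDL, M is LWDM, mus is muscle); each point is 1 array and the line is the group median. Muscle arrays stand above all others for XIRP2, MURC, NEB, and PRKAG3, liver arrays for CP, GSTA1, and SQLE, and fat arrays for CD36, ARNTL2, PLIN1, SCD, and ELOVL6; the highest fat value of XIRP2 is 4.49.

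ARNTL2, a transcription factor that pairs with the circadian factor CLOCK, had one of the largest fat differences. It ran from 7.45 to 8.57 with a median of 7.88 in fat, from 2.20 to 2.96 with a median of 2.54 in muscle, and from -2.32 to 0.22 with a median of -0.75 in liver, in 3 separate ranges, and the difference was 7.04 ± 0.12 (limma adjusted p = 2.49e-40). SLC36A2, a proton-coupled amino acid transporter, ran from 4.75 to 8.20 with a median of 6.66 in fat and from 0.012 to 2.56 with a median of 1.19 in muscle, and DGKB, a diacylglycerol kinase, from 2.47 to 4.08 with a median of 3.67 in fat and from -3.61 to -1.13 with a median of -2.15 in muscle. No other array reached the fat arrays for either gene, and their differences were 6.08 ± 0.18 and 5.84 ± 0.28. CLMP, an adhesion molecule known from adipocyte maturation, differed by 4.91 ± 0.20, and S100A12, a calcium-binding protein of myeloid cells, by 4.76 ± 0.21.

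Among the enzymes of fatty acid synthesis, SCD and ELOVL6 showed steps of fat, liver, and muscle. SCD, which desaturates stearate, ran from 2.10 to 5.43 with a median of 4.77 in fat, from -0.93 to 1.76 with a median of 0.44 in liver, and from -4.49 to -1.26 with a median of -2.52 in muscle. The 3 tissues did not overlap, and the fat difference was 5.60 ± 0.20 in the log ratio and 3.43 in Cy3 alone. ELOVL6, which lengthens palmitate, ran from 2.25 to 4.68 with a median of 3.81 in fat, from -1.5 to 0.51 with a median of -0.039 in liver, and from -4.62 to -1.66 with a median of -3.21 in muscle, again in separate ranges. ME1, the malic enzyme that supplies NADPH, held another order, with 4.08 to 8.32 (median 6.74) in fat, 1.91 to 3.74 (median 2.81) in muscle, and -1.44 to 0.64 (median 0.064) in liver. FASN, the fatty acid synthase, ran from 1.20 to 3.6 with a median of 2.88 in fat, from -0.86 to 2.43 with a median of 1.39 in liver, and from -3.68 to -1.90 with a median of -2.77 in muscle. Fat and liver overlapped for FASN, although fat was called higher by 1.71 (limma adjusted p = 2.18e-10). ACLY, which makes cytosolic acetyl-CoA, differed in fat by 3.09 ± 0.16. GPAM, the mitochondrial first step of triglyceride synthesis, went the other way, with -5.03 to -3.46 (median -4.59) in fat, -0.61 to 1.05 (median 0.55) in liver, and -5.60 to -4.31 (median -4.96) in muscle.

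PLIN1, which coats the lipid droplet of adipocytes, ran from 4.67 to 5.76 with a median of 5.08 in fat, from -1.17 to 1.89 with a median of 0.60 in muscle, and from -2.29 to 0.41 with a median of -0.64 in liver. It was well above background on 4 of 15 muscle arrays and 1 of 15 liver arrays, and its fat difference was 5.38 ± 0.18 in the log ratio and 7.55 in Cy3 alone. LEP, the adipocyte hormone leptin, ran from 4.32 to 5.15 with a median of 4.60 in fat and was not well above background on any liver array, so that fat was at least 112-fold higher. Its fat difference was 3.29 in the log ratio and 9.90 in Cy3. PPARG, the master regulator of adipocytes, differed by 3.26 and 7.34, and AOC3, an amine oxidase of the adipocyte surface, by 2.77 and 4.32. The adipocyte genes of the list that were lower in fat were HSD11B1, which activates cortisol, and MRAP, a partner of the corticotropin receptor. HSD11B1 ran from -6.54 to -4.99 with a median of -5.81 in fat and from -1.56 to -0.72 with a median of -1.07 in liver, and for MRAP, which was not well above background in fat, liver was at least 5.12-fold higher.

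HOMER1, a scaffold protein of calcium signaling, and TNFRSF11B, the decoy receptor osteoprotegerin, were lower on every fat array than on all other arrays. HOMER1 ran from -6.54 to -4.25 with a median of -5.45 in fat, from -1.12 to 0.36 with a median of -0.59 in liver, and from 1.28 to 2.50 with a median of 1.79 in muscle, in separate ranges, with a fat difference of -6.22 ± 0.15. TNFRSF11B was well above background on 1 of 15 fat arrays and on every liver and muscle array, and it differed by -5.98 ± 0.20. Both genes were highest in muscle.

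CD36, LPL, FABP3, and HK2, which are set together here after their values were seen, were called lowest in liver, with fat and muscle both above it. CD36, the fatty acid receptor of the cell surface, ran from 8.80 to 9.14 with a median of 9.02 in fat, from 7.25 to 8.14 with a median of 7.67 in muscle, and from -2.07 to -0.17 with a median of -0.88 in liver. Fat exceeded muscle without overlap by 1.36 (limma adjusted p = 2.66e-14), and both lay far above liver, whose difference was -9.19 ± 0.10. LPL, the lipoprotein lipase, ran from 6.73 to 8.17 with a median of 7.21 in fat, from 6.45 to 7.34 with a median of 7.02 in muscle, and from -2.32 to 0.16 with a median of -1.35 in liver. The fat and muscle ranges of LPL overlapped in the log ratio, where fat minus muscle was 0.37. In Cy3 alone fat minus muscle was 4.57, and the ranges of that channel were not compared. FABP3, the fatty acid binding protein of heart and muscle, ran from 4.79 to 5.68 with a median of 5.14 in fat and from 3.84 to 5.17 with a median of 4.32 in muscle, and fat minus muscle was 0.72 in the log ratio and 3.32 in Cy3. HK2, the insulin-responsive hexokinase, was called highest in muscle by the log ratio, with a fat minus muscle difference of -1.13, and highest in fat by Cy3 alone, with 2.64. HK2 was not well above background in liver, and fat was at least 68.6-fold and muscle at least 11.2-fold higher. The comparison of fat with muscle for LPL, FABP3, and HK2 therefore depended on the channel.

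Genes of other cells that these tissues hold were also compared. Of 13 genes of fibroblasts and matrix, 10 were called higher in fat and 6 were highest there, beside 15.3% and 7.90% of all tested probes, with a median fat difference of 2.27, and 9 were lower in liver, beside 18.5%. After normexp and loess these counts were 7, 4, and 5, with a median of 1.11 in fat. COL1A2, a chain of type I collagen, ran from 3.44 to 5.75 with a median of 4.41 in fat, from -1.42 to 2.70 with a median of 1.97 in muscle, and from -2.27 to 0.96 with a median of -0.54 in liver. Every fat array lay above every muscle array for it. THBS2, a matricellular protein, differed in fat by 3.07 ± 0.22. POSTN, another matrix protein, was highest in fat but lowest in muscle, with -0.39 to 1.88 (median 1.39) in fat, -1.09 to 0.21 (median -0.21) in liver, and -6.34 to -2.66 (median -4.12) in muscle. MFAP5, of elastic microfibrils, was highest in muscle, with 6.15 to 7.27 (median 6.65) in muscle, 5.02 to 6.26 (median 5.63) in fat, and -2.56 to 1.20 (median 0.13) in liver.

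Of 8 endothelial genes, 6 were higher in fat (median 1.49) and 4 lower in liver, beside 15.3% and 18.5% of all tested probes, and after normexp and loess 4 and 3 were. CD300LG, a receptor of capillary endothelium, ran from 3.77 to 4.73 with a median of 4.10 in fat, from 2.04 to 4.10 with a median of 2.82 in muscle, and from -3.13 to -0.085 with a median of -1.65 in liver, and CD34 differed in liver by -3.55 ± 0.093. FLT1, a receptor of vascular endothelial growth factor, lay at -1.65 to 0.82 (median -0.38) in fat, -1.35 to 0.52 (median -0.36) in liver, and -1.98 to 0.71 (median -0.21) in muscle and was not called in any tissue. The shift toward fat was thus not common to all genes of this list.

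Of 21 genes of immune cells, 9 were higher in liver, 6 in fat, and 0 in muscle, beside 17.7%, 15.3%, and 16.5% of all tested probes. In the same order 0, 5, and 13 were lower, beside 18.5%, 14.3%, and 20.0%, so that in fat the list went both ways. After normexp and loess 3 were higher in liver, 4 in fat, 2 lower in fat, and 4 lower in muscle. CD3D of T cells was highest in liver (difference 2.10 ± 0.16), as was IGJ, the joining chain of secreted antibodies (2.84 ± 0.17). CD163, a scavenger receptor of macrophages, was higher in fat (1.69 ± 0.18), where it ran from -1.48 to 1.12 with a median of 0.19, but it overlapped liver, which ran from -1.47 to 0.67 with a median of -0.58. LYZ, the lysozyme, spread widely in fat, from -1.87 to 3.34 with a median of 1.14. Of 5 genes of nerve and Schwann cells 3 were higher and 1 lower in fat, 2 higher and 2 lower in liver, and 2 lower in muscle. Of 10 genes of epithelium and skin 3 were higher and 4 lower in fat, 5 higher and 2 lower in liver, and 6 lower in muscle. Over all tested probes these shares were 15.3% and 14.3%, 17.7% and 18.5%, and 20.0%. After normexp and loess 2 nerve genes were higher in fat (median 0.32, from 1.26) and 1 lower in muscle, and 2 epithelial genes were lower in fat and 3 in muscle. Of 4 smooth muscle genes 1 was called higher in each tissue, 1 lower in liver, and 2 lower in muscle. After normexp and loess 0 of these were higher in muscle and 0 lower in liver. Of 4 genes of red blood cells 1 was called higher in liver and 1 in muscle, 1 lower in fat, 1 in liver, and 2 in muscle, and after normexp and loess none was called.

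Of 7 ribosomal protein genes, 6 were called in no tissue, as were 15920 of the 34172 tested probes, with median differences of 0.1 in fat (-0.22 in Cy3 alone), -0.34 in liver, and 0.18 in muscle. The exception was RPL37A, which was higher in fat by 1.34 ± 0.075 and lower in liver, with a difference of -1.17. The mean of the list overlapped among the tissues, at 0.14 to 0.87 in fat, -0.69 to 0.72 in liver, and 0.084 to 0.84 in muscle.

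Transcription factors that pattern the body were called in several tissues as well. Of 8 such genes 3 were highest in muscle, 3 in liver, and 1 in fat, beside 10.6%, 12.4%, and 7.90% of all tested probes, and after normexp and loess 2, 2, and 0 were. HOXA9, a HOX factor of the posterior trunk, ran from 7.09 to 8.71 with a median of 8.13 in muscle and from 0.31 to 6.82 with a median of 3.30 in fat. It was well above background on 13 of 15 fat arrays and on no liver array, and muscle was at least 10.6-fold above liver. HOXA10 was also highest in muscle, at least 6.24-fold above liver, and its fat values spread from -0.23 to 6.93 with a median of 2.23. BARX2, a homeobox factor of muscle regeneration, was well above background on 13 of 15 muscle arrays and on no fat or liver array. Those of liver were HAND2, ONECUT1, and IRX4. IRX4 was well above background on 8 of 15 liver arrays and on no other array. By the filter on tested probes these 8 hold every liver of 1 breed type and few or none of the other. HAND2, of mesenchyme, was not well above background in fat or muscle, and liver was at least 7.71-fold and 6.55-fold higher. ONECUT1, a hepatocyte nuclear factor, ran from -0.95 to 0.79 with a median of 0.30 in liver, from -5.25 to -4.60 with a median of -4.91 in muscle, and from -6.03 to -4.37 with a median of -5.71 in fat. MKX, a factor of tendon and connective tissue, was highest in fat, where it ran from 2.39 to 5.62 with a median of 4.70, against 1.85 to 4.24 in muscle.

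Few probes had a tissue difference that was called different between the breed types. The difference of the tissue contrast in LWDM minus that in LWDL was called for 971 probes in fat (2.84%), 815 in liver (2.38%), and 543 in muscle (1.59%). In fat 581 of these (1.70%) were higher in LWDM and 390 (1.14%) lower, in liver 345 (1.01%) and 470 (1.38%), and in muscle 299 (0.875%) and 244 (0.714%). The share that was higher in LWDM was 59.8% in fat, and it was 71.6% after another background correction and dye normalization (normexp and loess) and 71.0% among probes well above background on every array, but 54.9% in Cy3 alone. A call here can come from a breed type difference in the named tissue or from opposite ones in the others. Because gene symbols came from lists that the study made for breed type on these animals, 20.9% of the 1354 named genes were called in fat, 21.0% in liver, and 14.1% in muscle, and the counts of named genes are not independent evidence of a dependence on breed type.

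**Figure D5:**
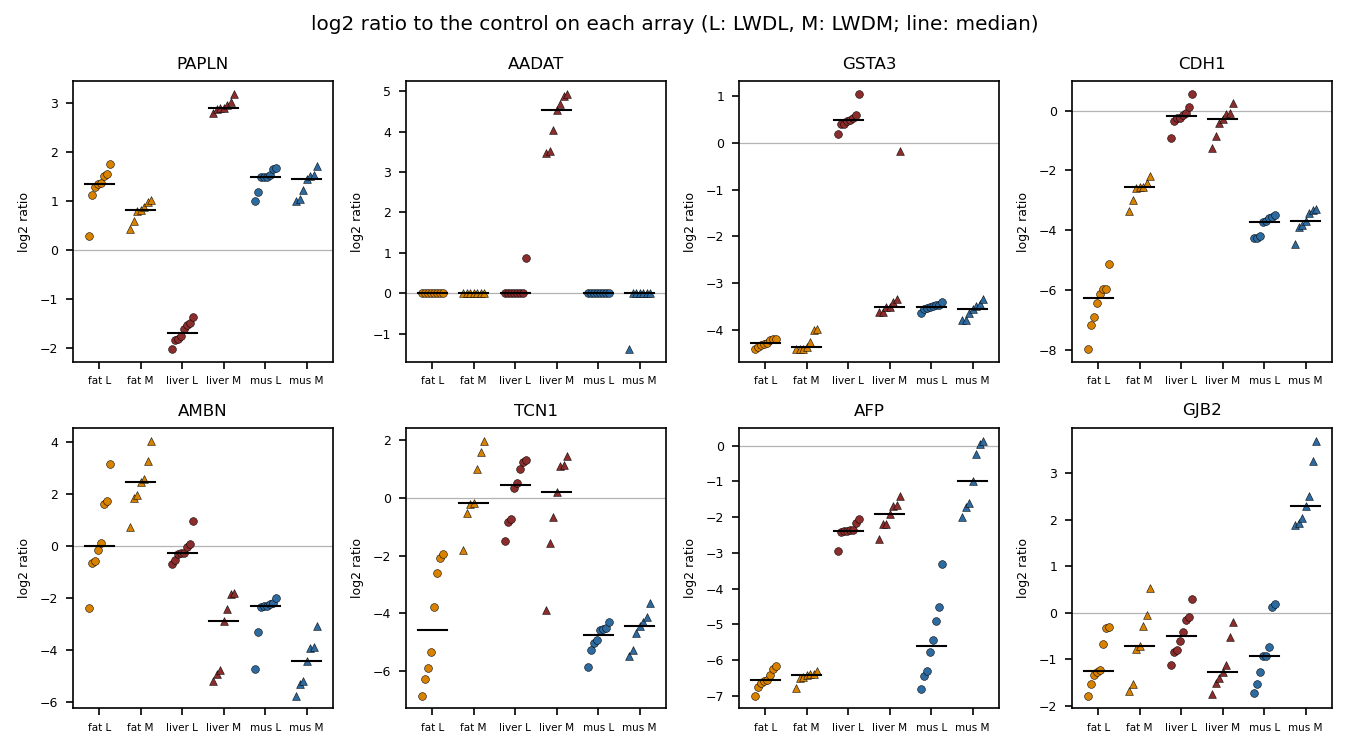
Log2 ratio to the control (y axis) of 8 genes on each array, by tissue and breed type (x axis; L is LWDL, M is LWDM, mus is muscle); each point is 1 array and the line is the group median. In liver PAPLN and AADAT stand higher in all 7 LWDM arrays than in all 8 LWDL arrays, GSTA3 is lower in all 7, with 1 of them at -0.17, and the breed types do not overlap for CDH1 in fat and AFP in muscle.

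Among the 1354 genes with a symbol, the largest fitted breed type dependence in liver was that of PAPLN, an extracellular protein related to matrix proteases. Its log2 ratios in liver were -2.03 to -1.37 (median -1.69) in LWDL and 2.81 to 3.19 (median 2.91) in LWDM, without overlap. In muscle they were 0.99 to 1.69 (median 1.5) and 1.00 to 1.72 (median 1.46), which overlapped. Liver was therefore the lowest tissue for PAPLN in LWDL and the highest in LWDM, and the liver contrast differed by 4.93 ± 0.17 (SE; limma adjusted p = 1.01e-24). AADAT, an enzyme of kynurenine and lysine breakdown, was not well above background on any LWDL liver and on no fat or muscle array of either breed type, while LWDM livers ran 3.48 to 4.92 (median 4.53) and were at least 3.42-fold higher than LWDL livers. AADAT was thus well above background in LWDM liver and in no other group. The fitted contrast differed by 4.28 ± 0.21, but this size and its SE rest on dim signals in the other groups. LOC285141 behaved in the same direction, with -1.13 to -0.62 (median -0.86) in LWDM livers against LWDL livers that were not well above background, and LWDM livers were at least 1.81-fold higher. Its contrast was no longer called after normexp and loess.

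GSTA3, a glutathione transferase of steroid synthesis, went the other way. In liver it was 0.20 to 1.04 (median 0.48) in LWDL and -3.62 to -0.17 (median -3.51) in LWDM, and the value of -0.17 was that of LWDM pig 3 while the other 6 LWDM livers lay between -3.62 and -3.34. These 6 livers lay close to muscle, which ran from -3.79 to -3.34 with a median of -3.52. The liver contrast differed by -3.52 ± 0.32. KIAA1199, a hyaluronan-binding protein, was -0.63 to 1.32 (median 0.27) in LWDL livers and -4.24 to -2.43 (median -2.63) in LWDM livers, again without overlap. AMBN, known from enamel, was lower in the LWDM liver with -5.18 to -1.80 (median -2.89) against -0.71 to 0.93 (median -0.29), and its liver contrast differed by -3.37 ± 0.73.

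In fat the genes named for a higher contrast in LWDM were TCN1, AMBN, and CDH1. CDH1, the cadherin of epithelia, was -7.97 to -5.13 (median -6.27) in LWDL fat and -3.37 to -2.20 (median -2.57) in LWDM fat, without overlap, and was well above background on 1 of 8 and 7 of 7 arrays. Its livers overlapped, at -0.90 to 0.54 (median -0.20) and -1.24 to 0.23 (median -0.30), and the fat contrast differed by 3.82 ± 0.32. TCN1, a carrier of vitamin B12, was -6.84 to -1.94 (median -4.56) in LWDL and -1.82 to 1.96 (median -0.20) in LWDM fat, and AMBN -2.40 to 3.15 (median -0.022) and 0.70 to 4.03 (median 2.46). The ranges of TCN1 lay next to each other without overlap, while those of AMBN overlapped. Toward LWDL the genes were ESRRG, an orphan nuclear receptor (-3.54 ± 0.81), ATP6V0A4, a proton pump subunit (-3.18 ± 0.76), and PAPLN (-2.77 ± 0.17). The fat ranges of ESRRG overlapped, at 0.95 to 3.06 (median 2.40) in LWDL and -4.30 to 2.56 (median 1.64) in LWDM, where 1 array lay at the lowest value far from the others. In LWDL and LWDM the medians of ESRRG were 0.25 and 2.02 in muscle and -3.42 and -1.17 in liver, so that the fat contrast held differences in the other tissues as well. ATP6V0A4 was 5.92 to 6.69 (median 6.17) in LWDL fat and -1.24 to 5.57 (median 4.81) in LWDM fat, without overlap. In the case of PAPLN the fat ranges overlapped, at 0.29 to 1.77 (median 1.36) and 0.43 to 1.03 (median 0.81), and the breed types were far apart in liver.

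In muscle AFP depended on breed type. Muscle of LWDL ran -6.81 to -3.30 (median -5.61) and was well above background on 1 of 8 arrays, and muscle of LWDM ran -2.0 to 0.14 (median -0.98) on 7 of 7, without overlap. AFP of liver was -2.93 to -2.06 (median -2.37) and -2.61 to -1.42 (median -1.91). In LWDM the muscle median thus lay above that of liver, and in LWDL below it, and the muscle contrast differed by 4.28 ± 0.40 (limma adjusted p = 3.68e-10). GJB2, a gap junction protein, and ZNF644, a zinc finger protein, were also higher in LWDM muscle, with 1.89 to 3.69 (median 2.29) against -1.72 to 0.19 (median -0.94) and 3.32 to 4.19 (median 3.56) against 0.26 to 2.04 (median 0.96). The muscle contrast of ZNF644 was no longer called different after normexp and loess. In LWDL alone the muscle difference of GJB2 was -0.093, so that its higher level in muscle belonged to LWDM. C6orf165 was lower in LWDM muscle, at 2.10 to 4.48 (median 2.73) against 3.86 to 7.69 (median 6.12), which overlapped. DYDC1 was named for muscle as well, but it was not well above background on any muscle array, and the breed types differed in fat, at -1.93 to 1.19 (median -0.47) in LWDL and 2.83 to 3.95 (median 3.46) in LWDM, without overlap.

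The lists gave the same comparison for groups of genes. Their members carry symbols because the study listed them for breed type, so that these counts are a description. In fat 11 of 17 sarcomere genes had a fat contrast higher in LWDM, beside 1.70% of all tested probes, with a median breed type difference of 1.53, and none was lower. Without the fat array of LWDM pig 3 it was 10 of 17 (median 1.20), and after normexp and loess 6 of 17 (median 0.82). In Cy3 alone it was 11 of 17 (median 2.31). The mean of the list was 0.37 to 2.62 (median 0.88) in LWDL fat and 1.99 to 4.27 (median 2.62) in LWDM fat, and it was 5.23 to 5.82 (median 5.64) and 5.76 to 5.94 (median 5.82) in muscle. Sarcomere genes were thus higher in LWDM fat than in LWDL fat at the median, with overlapping ranges, and the part of muscle RNA carried into the fat samples was not tested. Of 13 genes of cholesterol synthesis 5 had a fat contrast higher in LWDM, and 3 in Cy3 alone, and the mean of the list in fat was -3.46 to -1.91 (median -2.37) in LWDL and -2.02 to -1.07 (median -1.37) in LWDM. Of 12 genes of fatty acid and triglyceride synthesis 4 were higher in LWDM in the same sense, and of 5 genes of nerve and Schwann cells 3 were lower, beside 1.14% of all tested probes. List means also differed outside fat. In liver the list of glucose output spanned -0.28 to -0.06 in LWDL and 0.51 to 1.34 in LWDM. The endothelial list in liver spanned -0.45 to 0.31 and -1.38 to -0.57. In muscle the list of fibroblasts and matrix spanned 1.06 to 1.58 and 0.45 to 0.89 in the same order.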

How the data were processed

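Gene expression was measured on 45 two-color arrays of a custom Agilent pig design, with 1 array per tissue of each animal. The intensities and the log10 ratios of the dyes were deposited as written by Agilent Feature Extraction 9.5, which subtracts background and corrects dye bias, and the deposited series table holds the same log10 ratios of Cy3 over Cy5 with rounding. Feature Extraction writes a ratio of 0 where both channels are dim, which lowers differences of dim genes. Log2 ratios of sample over control were computed here from the log10 ratios with the sign turned. Of 44638 spots, 1417 controls were left out, and so were spots marked as outliers. Deposited fold changes and p-values of the study were not used, and symbols came from its supplementary lists, of which 2011 probes had one. The files used here hold no genome positions for the probes.

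A gene was represented by its tested probe with the highest mean Cy3 signal. In R 4.3.3, models over all 34172 probes were fitted by lmFit and eBayes of limma 3.58.1. Tissue differences came from a fit with tissue and breed type as terms and no interaction. Breed type differences of a tissue contrast came from a separate fit with a mean for each tissue and breed type. A difference was called at over 2-fold and an adjusted p under 0.05. Named were, for each tissue, the 10 genes with the largest positive difference and the 3 with the largest negative difference whose arrays did not overlap the others, the members of 19 gene lists, and the 3 genes in each direction with the largest breed type difference of a tissue contrast. A few genes that this rule names are not reported here. The members and lists were chosen with earlier results of these data known. A bound ("at least N-fold") compares Cy3 signals after normexp, loess, and Aquantile normalization, with dim arrays set to the lowest signal well above background or to their own signal if higher, and it is open to dye bias because the dyes were not exchanged. Same-numbered arrays of a breed type were taken as the same animal. By deviations from group means among 5-month arrays, fat was nearest to its own liver array in 15 of 15 animals. Fat was nearest to its own muscle array in 15 of 15, and liver to its own muscle array in 9 of 15. With 12-day arrays searched as well, fat was nearest to its own liver array in 13 of 15. Liver was then nearest to its own fat array in 11 of 15. The muscle array of LWDL pig 4 correlated at -0.028 with its own liver array and at 0.251 with that of LWDL pig 2. Alternatives were normexp and loess, Cy3 alone, centring, other filters on dim probes, animal or slide as a block, each breed type alone, the test of the methods, and a stricter fold, and after seeing the data the fat array of LWDM pig 3 was left out. The number of arrays limits the precision. The fits were tested on simulated data.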

Additional observations from a re-analysis of the deposited data

Results flagged for a closer look

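Of 204 groups of 7 or 8 arrays tested for an array far from the rest of its group, 16 held one, and chance gives about 1 in 20. In fat, LWDM pig 3 stood apart for the mean of the sarcomere list (4.27) and of the other muscle genes (2.20), and LWDL pig 7 for the other muscle genes (0.64). In muscle, LWDL pig 6 stood apart for the mean of fatty acid and triglyceride synthesis (-2.22) and LWDL pig 2 for the endothelium (0.78). Among single genes in liver, LWDL pig 4 stood apart for AFP (-2.93), GSTA3 (1.04), and AADAT (0.86), where AADAT was not well above background. LWDL pig 6 stood apart for AMBN (0.93), LWDL pig 3 for DYDC1 (0.62), and LWDM pig 3 for GSTA3 (-0.17). In fat, LWDM pig 2 stood apart for AFP (-6.77) and ESRRG (-4.30), LWDL pig 8 for PAPLN (0.29), and LWDL pig 6 for C6orf165 (1.68), and in muscle LWDM pig 4 for AADAT (-1.39). For AADAT in both groups and for C6orf165 no array of the group was well above background and the others were all at 0, so that any other value stands apart and the rate of chance does not apply to these 3.

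By the interaction test of limma, the tissue contrast differed between LWDM and LWDL for 283 of the 1354 named genes in fat, 285 in liver, and 191 in muscle. The 15 genes given here were picked as those with the largest such differences in each direction. The values below are the contrast in LWDM minus that in LWDL. The 3 contrasts of a gene sum to 0, so that a gene often appears for more than 1 tissue. Toward a higher liver contrast in LWDM, PAPLN differed by 4.93 in liver, -2.77 in fat, and -2.16 in muscle, AADAT by 4.28, -1.99, and -2.29, and LOC285141 by 4.23, -2.24, and -1.99. Outside LWDM liver no array was well above background for AADAT or LOC285141, and after normexp and loess LOC285141 differed in liver by 0.85 and was no longer called. Of the 38 differences given here, 16 lost their call under that setting. These were all 3 of LOC285141 and of ZNF644, those of AADAT in fat and muscle, of AFP and C6orf165 in fat and liver, of CDH1 and KIAA1199 in muscle, and of ESRRG and GJB2 in liver. ATP6V0A4 differed by 2.75 in liver and -3.18 in fat, and ESRRG by 2.40 and -3.54. Toward a lower liver contrast, GSTA3 differed by -3.52 in liver, 1.83 in fat, and 1.69 in muscle, AMBN by -3.37 in liver and 4.60 in fat, and KIAA1199 by -2.98 in liver and 2.3 in muscle. TCN1 differed by 4.67 in fat and -2.93 in liver, and CDH1 by 3.82 in fat, -2.19 in liver, and -1.63 in muscle. In muscle AFP differed by 4.28, against -2.40 in fat and -1.87 in liver, GJB2 by 3.49 against -2.54 in liver, and ZNF644 by 2.97 against -1.52 in fat and -1.45 in liver. C6orf165 differed by -2.62 in muscle, 1.15 in fat, and 1.47 in liver, and DYDC1 by -2.54 in muscle and 2.47 in fat.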

How the results depend on the processing

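Of 174 alternative counts of called probes over 12 results, 143 stayed within 1.5 times the reported count and 31 were lower. After normexp and loess, 3344 probes were higher and 3114 lower in fat, 3938 lower in liver, 3628 higher and 4403 lower in muscle, and 380, 316, and 168 depended on breed type in fat, liver, and muscle. Among probes well above background on all 45 arrays, so with fewer probes tested, 3454 were higher and 2726 lower in fat, 3735 higher in liver, 3751 higher and 4455 lower in muscle, 1773, 2606, and 2415 were highest in fat, liver, and muscle, and 397, 331, and 208 depended on breed type. At 4-fold, the counts were 1569 and 1887 in fat, 2921 and 2462 in liver, and 2136 and 2232 in muscle, with 692, 2168, and 1315 highest in each and 95, 90, and 35 depending on breed type. The cause of the lower counts after normexp and loess was not tested. With the animal as a fixed replicate block, 2701, 4252, and 3634 probes were highest in fat, liver, and muscle, and with the animal as a random block 998, 840, and 570 depended on breed type. The replicate block changed no call among 237 tissue differences of single genes. With the slide as a random block, the breed type counts of fat, liver, and muscle all stayed within 1.5 times the reported ones. In liver 619 probes and in muscle 398 then depended on breed type. Without the fat array of LWDM pig 3, left out after seeing the data, 1169, 879, and 583 did.

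Of 3722 alternative values for the 237 tissue differences of single genes, 3572 kept their direction and call, 144 kept only the direction, and 6 reversed. The reversed values were ACTA1, which was saturated on the muscle arrays, in fat by Cy3 alone (-1.38), ABCC11 in liver after normexp and loess (-0.17), AOC3 in liver as the mean over its probes (0.87), and, in LWDL arrays alone, AFP in muscle (-0.98), LOC285141 in liver (-0.57), and GJB2 in muscle (-0.093). Of 38 breed type differences of single genes, none reversed and 16 were no longer called after normexp and loess, among them LOC285141 in liver (0.85). With the slide as a random block 2 of the 38 lost their call, in Cy3 alone 3, and at 4-fold 10. Of 57 list medians, 4 changed sign under some alternative, those of the endothelium, fibroblasts and matrix, and HOX and regional patterning in muscle and that of ribosomal proteins in fat, all of which lay between 0.01 and 0.10. Of the 57, 34 moved by more than the spread between arrays after normexp and loess, and 23 did so by Cy3 alone. The methods' test, with each tissue against the other arrays, called 5157 and 4706 probes higher and lower in fat, 6009 and 6256 in liver, and 5581 and 6718 in muscle after Benjamini-Hochberg adjustment. Signal over background limits the lowest genes, and a fitted difference from a tissue with no array well above background rests on dim signals, with a bound beside some of these.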
